A study of Homo sapiens with 4 samples.

Results

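Lysosomal hydrolases and membrane proteins were followed through 46 genes, chosen by name: 9 cathepsins, 2 other peptidases, 10 glycosidases, 4 sulfatases, 7 lipid hydrolases with their activators and carriers, 7 membrane proteins, 6 subunits of the proton pump, and the transcription factor TFEB. The choice was made with earlier results of these data known. All 46 were among the 18417 genes that the array measures under a single gene symbol, and each gene was read from its brightest probe set. The values come from NOMO-1, an established human cell line from an acute monocytic leukaemia, on 4 expression arrays, 1 for each lentiviral construct. The knock-down group held cells with the hairpin SH1 and cells with the hairpin SH3, both directed against ZFX, a zinc finger transcription factor. The control group, labelled wild type for ZFX, held cells with a scrambled hairpin (SCR) and cells with a GFP lentivirus (LEN-GFP). All cells were transduced at a multiplicity of infection of 1 and their RNA was taken 48 h after selection, so every array, controls included, comes from infected and selected cells. The comparison asks how transcripts of the lysosome differ when ZFX is reduced.

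The lysosome is the acidic compartment in which cells break down proteins, sugar chains, nucleic acids and lipids that arrive by endocytosis, phagocytosis or autophagy. Its soluble enzymes are made in the endoplasmic reticulum and are mostly routed by mannose 6-phosphate tags. A vacuolar proton pump acidifies the lumen, and heavily glycosylated membrane proteins line it. Many of these genes carry a short palindromic element in their promoters, called CLEAR, that the factors TFEB and TFE3 bind when nutrients are short. Cells of the monocyte and macrophage line are rich in lysosomes.

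Each construct was measured on a single array. The p-values of both hairpin arrays against both controls therefore describe the spread among constructs as well as arrays. Those of SH1 alone, SH3 alone and SH3 minus SH1 hold no spread between the hairpins. The small number of arrays limits the precision. ZFX itself had log2 intensities of 10.13 on SH1 and 10.12 on SH3, against 10.65 on LEN-GFP and 10.66 on SCR. That is 69.3% of the control level (difference -0.53, SE 0.10), or 69.7% on SH1 and 68.9% on SH3. The limma p for both hairpins against both controls was 0.00386 unadjusted and 0.797 adjusted over the 12892 genes tested. No gene had a smaller adjusted p in that fit. The hairpin arrays were alike in ZFX. Set alone against the control pair, SH3 had 1698 genes past an adjusted p of 0.05, and SH1 had 54. These single-array fits assume that the lone array varies like the control pair, and they share their controls, so their values stand side by side only. The median intensity of the 4 arrays lay between 184.8 and 189.8.

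The label of a monocytic line was set against markers. LYZ and ITGAM, lysozyme and an integrin chain of myeloid cells, had log2 intensities of at least 11.9 on every array. CD14, another monocyte marker, was far dimmer, with 7.27 on SH1 and 7.62 on SH3, against 7.35 on LEN-GFP and 7.37 on SCR. Markers of non-blood cells reached 10.2 on the hairpin arrays and 9.99 on the controls, above CD14, so the levels do not single out a monocytic line. T cell markers lay between 5.78 and 6.44 on the hairpin arrays and between 5.84 and 6.41 on the controls, all 4 under the limit of 6.70 below which genes were not tested. Of 21 markers of other cell types, 19 were on the array and 11 were tested, and none of the 11 separated the groups. Of 10 monocyte markers 7 were on the array, with levels between 5.39 and 14.3 on the hairpin arrays and between 5.46 and 14.4 on the controls, and CD163 and MRC1 lay under the limit. The 5 tested had a median difference of -0.00076 on SH1 and 0.26 on SH3. CSF1R, the receptor of the macrophage growth factor, was higher on SH1 (0.96, adjusted p 0.0334), a single-array call. CD36, a scavenger receptor, was at -0.42 on SH1 and 0.36 on SH3, and SH3 minus SH1 was 0.78 (adjusted p 0.0311). The part of these marker differences in the lysosomal results was not tested. In RNA from whole cultures, fewer cells of a type and less RNA per cell cannot be told apart.

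Across the lysosomal genes the SH3 array was the high one, and the SH1 array lay near the controls. Of the 46 genes 45 were tested, since ATP6V0D2 lay under the limit. Their median log2 difference from the control mean was 0.02 on SH1 and 0.22 on SH3, where all genes tested had -0.00062 and -0.0015. On SH3 40 of the 45 were above the control mean (88.9%, against 49.7% of all genes tested), and on SH1 24 were (53.3%, against 49.8%). The controls differed too, with a median of -0.12 for SCR minus LEN-GFP, where all genes had -0.03. With LEN-GFP as the only control the medians were -0.04 for SH1 and 0.15 for SH3, and with SCR as the only control they were 0.05 for SH1 and 0.25 for SH3. SH3 exceeded SH1 in 35 of the 45, and in 6459 of all 12892 genes tested. It was above both controls in 29 members and below both in 5, where 38.7% and 39.8% of all genes were. SH1 was above both in 18 and below both in 12, where 34.5% and 34.8% of all genes were.

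As a group, the hairpin arrays gave no call. With both hairpin arrays against both controls, limma called 0 of the 45 members at an adjusted p of 0.05, and 0 of all 12892 genes (0%). The members' smallest adjusted p was 0.797. Without adjustment 3 members had a p under 0.05 (CTSZ, GLB1 and NPC1), where 6.04% of all genes did, and statistics without moderation also called 0 genes after adjustment. With 2 arrays against 2, an exact two-sided permutation test cannot go below 0.333. Both hairpin arrays lay above both controls in 13 members (28.9%, against 18.2% of all genes) and below them in 3 (6.67%, against 19.0%). The other 29 overlapped.

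The single-array fits gave different counts for the hairpins. Because the members were chosen with earlier results of these data known, the shares below describe the list and do not test it. On SH3 11 members rose (24.4%, against 6.27% of all genes) and 1 fell, GLB1 (2.22%, against 6.90%). The 11 were CTSA, CTSH, LGMN, MAN2B1, IDS, LIPA, CLN3, MCOLN1, NPC1, ATP6V1A and ATP6V1B2, and they came from every enzyme class as well as the membrane and the pump. On SH1 0 members passed in either direction, where 0.171% of all genes were called higher and 0.248% lower. Without adjustment 5 members were higher and 5 lower on SH1 at a p under 0.05, where 4.55% and 5.53% of all genes were. A direct fit of SH3 minus SH1, added after the data were seen, called 8 members higher on SH3 (17.8%, against 4.01% of all genes): CTSA, LGMN, HEXA, IDS, CLN3, LAMP1, MCOLN1 and ATP6V1B2. It called 0 members lower on SH3, where 4.48% of all genes were. At an unadjusted p under 0.05, 16 members were higher on SH3 and 5 lower, where 10.9% and 11.3% of all genes were. Each arm of that fit is 1 array, so its p-values too rest on the spread of the control pair alone. The plot of all members by array shows SH3 to the right of the other arrays in most rows, with SH1 among the controls or on either side of them.

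**Figure D1:**
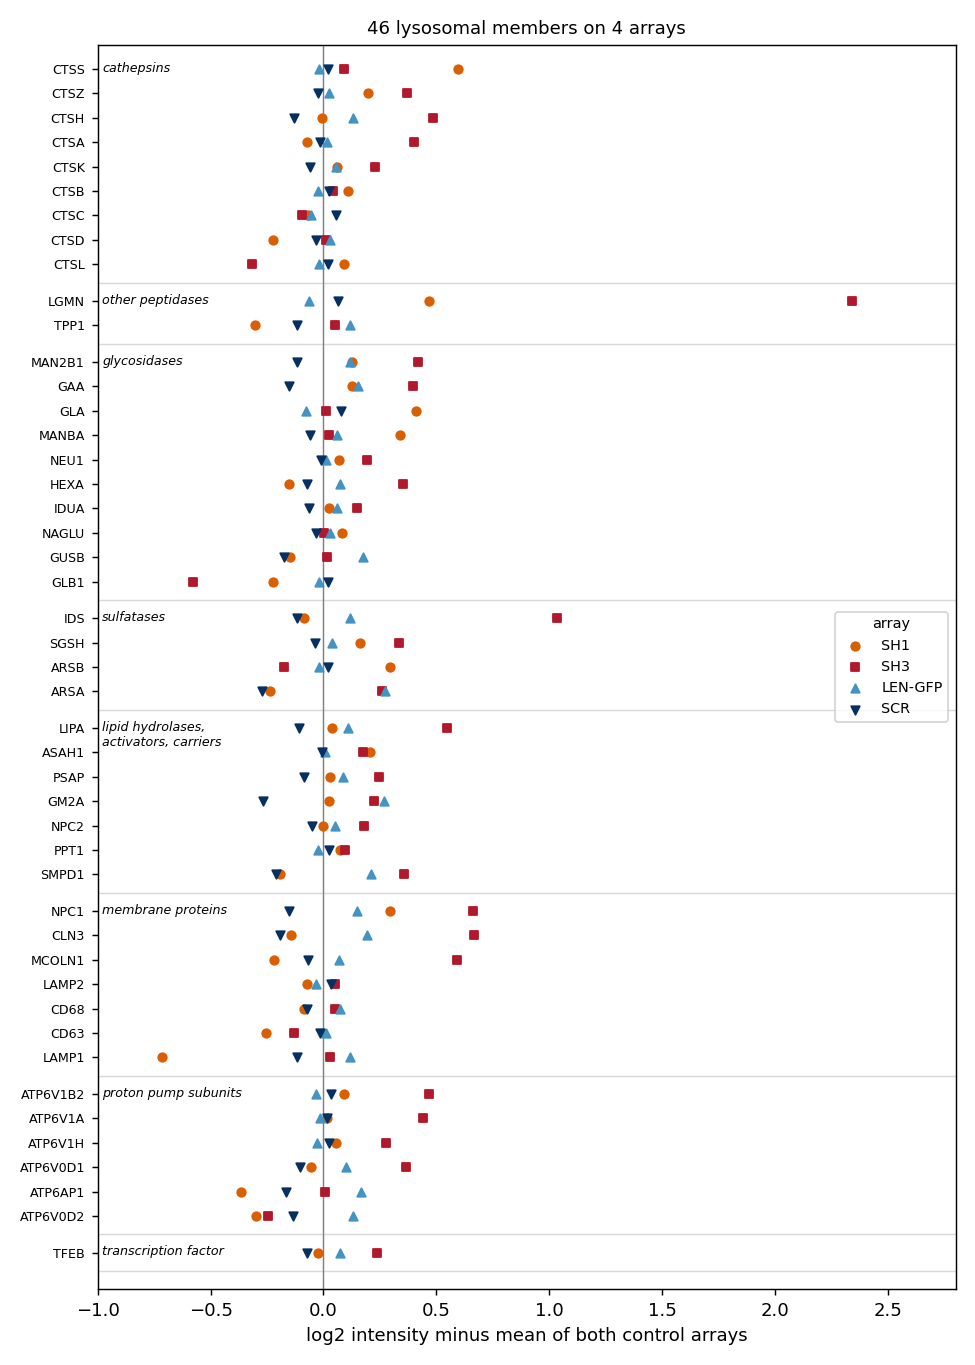
Log2 intensity of each of the 46 members on each array, minus the mean of both control arrays for that gene, with genes grouped by class. Each point is 1 array (SH1 circles, SH3 squares, LEN-GFP triangles, SCR inverted triangles), and no error bars are drawn because each construct has 1 array. SH3 lies above both controls in 29 of the 45 tested members (38.7% of all genes) and SH1 in 18 (34.5% of all genes), and LGMN on SH3 lies farthest out, at 2.34.

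Cathepsins, the proteases that digest most lysosomal protein, showed a mixed pattern. The median difference of the 9 was 0.06 on SH1 and 0.09 on SH3. Both hairpin arrays lay above both controls in 4 (CTSB, CTSK, CTSS and CTSZ), below both in 1 (CTSC), and 4 overlapped. Of all genes tested, 18.2% lay above and 19.0% below in the same way. On SH3 CTSH (0.49) and CTSA (0.40) were the highest of the 9, and CTSL was the lowest (-0.32).

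CTSS, the cathepsin that trims the invariant chain of class II molecules in antigen-presenting cells, had log2 intensities of 10.40 on SH1 and 9.89 on SH3, against 9.78 on LEN-GFP and 9.82 on SCR. SH1 stood alone, with the other 3 arrays close together, and SH3 was only just above the controls. The difference from control was 0.60 on SH1 (adjusted p 0.0984) and 0.09 on SH3 (adjusted p 0.741), and SH3 minus SH1 was -0.51 (adjusted p 0.0680). CTSZ, a carboxypeptidase, had 11.27 on SH1 and 11.44 on SH3, against 11.10 on LEN-GFP and 11.05 on SCR. Both hairpin arrays were above both controls here, by 0.28 on average (SE 0.11, adjusted p 0.797).

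CTSA, the serine carboxypeptidase that also shelters beta-galactosidase and neuraminidase in a complex, had 12.52 on SH1 and 12.99 on SH3, against 12.61 on LEN-GFP and 12.58 on SCR. SH3 was 1.32-fold above control (log2 0.40, SE 0.08, adjusted p 0.0121), and SH1 lay slightly under both controls. SH3 minus SH1 was 0.48 (adjusted p 0.0164). CTSH, an aminopeptidase of the papain family, had 11.26 on SH1 and 11.75 on SH3, against 11.39 on LEN-GFP and 11.13 on SCR. SH1 sat between the controls, and SH3 was higher than both (0.49, adjusted p 0.0358), a call lost in 2 of 7 settings (adjusted p up to 0.0640).

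CTSD, the major aspartic protease of the lysosome, had 12.65 on SH1 and 12.88 on SH3, against 12.90 on LEN-GFP and 12.84 on SCR. SH1 was the low array, at 85.6% of control (adjusted p 0.349), and SH3 lay between the controls. The remaining cathepsins differed little between the groups. CTSB, CTSC, CTSK and CTSL, papain-family proteases, differed by between -0.11 (CTSL) and 0.14 (CTSK) over both hairpins, and CTSL was at 80.3% of control on SH3 (adjusted p 0.184) and at 106% on SH1.

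The other peptidases held the widest difference of all members. LGMN encodes legumain, a protease that cuts after asparagine and matures several cathepsins. Its log2 intensity was 9.26 on SH1 and 11.13 on SH3, against 8.73 on LEN-GFP and 8.86 on SCR. Both hairpin arrays were above both controls, SH1 by a step and SH3 far beyond it. SH3 was 5.06-fold above control (log2 2.34, SE 0.14, adjusted p 1.85e-04), SH1 was at 138% of control (log2 0.47, adjusted p 0.267), and SH3 minus SH1 was 1.87 (adjusted p 7.38e-04). Over both hairpins the difference was 1.40 with an SE of 0.61 (adjusted p 0.797). TPP1, a tripeptidyl peptidase whose loss causes a childhood form of neuronal ceroid lipofuscinosis, had 11.68 on SH1 and 12.03 on SH3, against 12.10 on LEN-GFP and 11.86 on SCR. Only SH1 left the range of the controls, on the low side (-0.30, adjusted p 0.388).

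Glycosidases strip sugars from glycoproteins, glycolipids, glycogen and glycosaminoglycans. Their class moved little as a whole, at 0.08 for SH1 and 0.09 for SH3, the medians over 10 genes. On SH3 the 10 ran from -0.58 (GLB1) to 0.42 (MAN2B1). Groups did not overlap for MAN2B1 and NEU1 on the high side (20%, against 18.2% of all genes) and for GLB1 on the low side (10%, against 19.0%).

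GLB1, the beta-galactosidase that removes galactose from GM1 ganglioside and keratan sulfate, had 11.44 on SH1 and 11.09 on SH3, against 11.65 on LEN-GFP and 11.69 on SCR. Both hairpin arrays were under both controls, with SH3 the lower. GLB1 was at 67.1% of control on SH3 (log2 -0.58, SE 0.10, adjusted p 0.00724) and at 85.7% on SH1 (adjusted p 0.485), and its partner in the complex, CTSA, rose on SH3. The third member of that complex, the neuraminidase NEU1, had a difference of 0.07 on SH1 and 0.19 on SH3 (adjusted p 0.292), with 0.06 and 0.20 on a further probe set.

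MAN2B1, the alpha-mannosidase that trims N-glycans, had 11.71 on SH1 and 12.01 on SH3, against 11.70 on LEN-GFP and 11.47 on SCR. SH1 was level with the higher control, and SH3 was clear of both (0.42, adjusted p 0.0478). That call did not hold in 2 of 7 settings (adjusted p up to 0.0822). GAA, the acid alpha-glucosidase that degrades glycogen and is lost in Pompe disease, had 9.57 on SH1 and 9.84 on SH3, against 9.59 on LEN-GFP and 9.29 on SCR. SH1 lay between the controls, and SH3 was the highest array at 0.40 above their mean (adjusted p 0.150).

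HEXA, the alpha subunit of beta-hexosaminidase that is mutated in Tay-Sachs disease, had 11.21 on SH1 and 11.71 on SH3, against 11.43 on LEN-GFP and 11.28 on SCR. Its hairpin arrays lay on opposite sides of the controls, and SH3 minus SH1 was 0.50 (adjusted p 0.0427). GLA, the alpha-galactosidase of Fabry disease, ran the other way, with 11.29 on SH1 and 10.89 on SH3, against 10.80 on LEN-GFP and 10.96 on SCR. SH1 was the high array here (0.41, adjusted p 0.216), and SH3 was between the controls. The beta-mannosidase MANBA had the same order, with 0.34 on SH1 and 0.03 on SH3. GUSB, IDUA and NAGLU, which act on glycosaminoglycans, differed by between -0.06 and 0.08 over both hairpins.

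The panels of single genes show how differently the arrays were ordered from gene to gene.

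**Figure D2:**
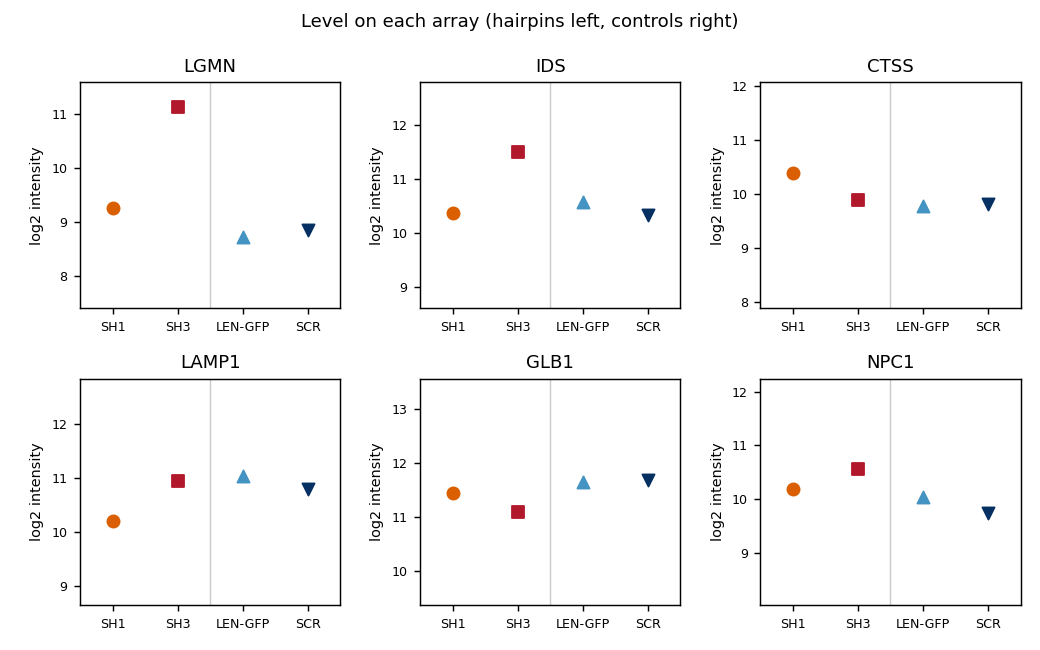
Log2 intensity of LGMN, IDS, CTSS, LAMP1, GLB1 and NPC1 on each array, hairpins left of the grey line and controls right of it, 1 point per array and the same span of the axis in every panel. SH3 is highest for LGMN (11.13), IDS (11.50) and NPC1 (10.56), SH1 is highest for CTSS (10.40) and lowest for LAMP1 (10.20), and SH3 is lowest for GLB1 (11.09).

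Among sulfatases, which take sulfate off glycosaminoglycans and sulfatide, IDS gave the clearest single-array difference. The median of the 4 was 0.04 on SH1 and 0.30 on SH3. IDS, the iduronate sulfatase that is lost in Hunter syndrome, had 10.38 on SH1 and 11.50 on SH3, against 10.58 on LEN-GFP and 10.34 on SCR. SH3 stood well above the other 3 arrays, and SH1 was inside the range of the controls. IDS was 2.05-fold above control on SH3 (log2 1.03, SE 0.13, adjusted p 0.00173), and SH3 minus SH1 was 1.12 (adjusted p 0.00398). A second IDS probe set gave 1.02 on SH3 and -0.10 on SH1.

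SGSH, a sulfamidase of heparan sulfate, had 9.54 on SH1 and 9.72 on SH3, against 9.42 on LEN-GFP and 9.35 on SCR. It was the only sulfatase of the 4 whose groups did not overlap, with both hairpin arrays above both controls (25%, against 18.2% of all genes). The difference was 0.25 (SE 0.13, limma adjusted p 0.797). ARSA, which acts on sulfatide, had 8.18 on SH1 and 8.67 on SH3, against 8.69 on LEN-GFP and 8.14 on SCR. Its arrays paired SH1 with SCR and SH3 with LEN-GFP, and the control arrays were as far apart as the hairpins. ARSB, which acts on dermatan sulfate, had 9.86 on SH1 and 9.39 on SH3, against 9.55 on LEN-GFP and 9.59 on SCR, with the hairpins on opposite sides of the controls.

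Lipid hydrolases, the activators that lift lipids to them and the carriers of cholesterol had medians of 0.22 on SH3 and 0.03 on SH1, and all 7 were above the control mean on SH3. On SH3 LIPA had the largest difference of the 7. LIPA, the acid lipase that frees cholesterol from its esters, had 11.34 on SH1 and 11.85 on SH3, against 11.41 on LEN-GFP and 11.19 on SCR. SH3 was 1.46-fold above control (log2 0.55, SE 0.12, adjusted p 0.0173), and SH1 was between the controls.

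ASAH1, the acid ceramidase, had 12.19 on SH1 and 12.16 on SH3, against 11.99 on LEN-GFP and 11.98 on SCR. Here the hairpin arrays were nearly level with each other and above both controls (0.19, SE 0.08, adjusted p 0.797). PSAP, the precursor of the saposins that activate sphingolipid hydrolases, had 12.66 on SH1 and 12.88 on SH3, against 12.72 on LEN-GFP and 12.54 on SCR. SH3 alone was above the controls, by 0.24 (adjusted p 0.133). GM2A, the activator that presents GM2 ganglioside to hexosaminidase, had 11.48 on SH1 and 11.67 on SH3, against 11.72 on LEN-GFP and 11.18 on SCR, and both hairpin arrays lay within the range of the controls. NPC2, which hands cholesterol to NPC1, and PPT1, a thioesterase, differed by 0.09 and 0.08 over both hairpins. SMPD1, the acid sphingomyelinase, was at -0.19 on SH1 and 0.36 on SH3, and SH3 minus SH1 was 0.55 (adjusted p 0.174).

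Membrane proteins were split by hairpin. All 7 were higher on SH3 than on SH1, where 6459 of all 12892 genes tested were. Their medians were -0.14 for SH1 and 0.05 for SH3. SH1 lay below both controls in 5 of the 7, where 34.8% of all genes were. On SH3 CLN3 (0.67), NPC1 (0.66) and MCOLN1 (0.59) were the highest of the 7, and CD63 was the lowest (-0.13).

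NPC1, the sterol transporter that carries cholesterol out of the lysosome, had 10.19 on SH1 and 10.56 on SH3, against 10.05 on LEN-GFP and 9.75 on SCR. Both hairpin arrays were above both controls. SH3 was 1.58-fold above control (log2 0.66, SE 0.15, adjusted p 0.0219) and SH1 was at 123% (adjusted p 0.600). CLN3, a membrane protein mutated in juvenile neuronal ceroid lipofuscinosis, had 9.48 on SH1 and 10.29 on SH3, against 9.82 on LEN-GFP and 9.43 on SCR. SH3 was the high array (0.67, adjusted p 0.0336, up to 0.0622 and not called in 2 of 7 settings), while the controls themselves spread widely enough to hold SH1 between them. MCOLN1, the calcium channel TRPML1, was chosen after its values were seen. It had 9.46 on SH1 and 10.27 on SH3, against 9.75 on LEN-GFP and 9.61 on SCR, with the hairpins on opposite sides of the controls. It was at 86.0% of control on SH1 (adjusted p 0.717) and 1.51-fold above it on SH3 (log2 0.59, adjusted p 0.0212), and SH3 minus SH1 was 0.81 (adjusted p 0.0161).

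LAMP1, an abundant glycoprotein of the lysosomal membrane, had 10.20 on SH1 and 10.95 on SH3, against 11.03 on LEN-GFP and 10.80 on SCR. SH1 was the low array and SH3 lay between the controls. LAMP1 was at 60.9% of control on SH1 (log2 -0.72, adjusted p 0.0615) and at 102% on SH3, and SH3 minus SH1 was 0.75 (adjusted p 0.0198). LAMP2, its relative with a role in autophagy, had 12.16 on SH1 and 12.28 on SH3, against 12.20 on LEN-GFP and 12.26 on SCR, so that its 4 arrays were close to each other. CD63, a tetraspanin of late endosomes, had 10.49 on SH1 and 10.62 on SH3, against 10.76 on LEN-GFP and 10.74 on SCR. It was the only one of the 7 with both hairpin arrays below both controls (14.3%, against 19.0% of all genes). The difference was -0.19 (SE 0.11, limma adjusted p 0.797). CD68, the scavenger receptor relative used to mark macrophages, differed by -0.09 on SH1 and 0.05 on SH3.

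The proton pump has a cytosolic sector that hydrolyses ATP and a membrane sector that moves protons. The median difference of its 5 tested members was 0.01 for SH1 and 0.37 for SH3. All 5 were higher on SH3 than on SH1, where 6459 of all 12892 genes tested were. ATP6V1A, the catalytic subunit, had 11.26 on SH1 and 11.69 on SH3, against 11.23 on LEN-GFP and 11.27 on SCR. ATP6V1B2, the nucleotide-binding subunit beside it, had 12.76 on SH1 and 13.14 on SH3, against 12.64 on LEN-GFP and 12.70 on SCR. In both genes SH3 was separated from 3 arrays that lay close together. Both rose on SH3, ATP6V1A by 1.36-fold (log2 0.44, adjusted p 0.0221) and ATP6V1B2 by 1.38-fold (log2 0.47, adjusted p 0.00668).

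ATP6V0D1, of the membrane sector, and ATP6V1H, a regulatory subunit of the cytosolic sector, were 1.29-fold and 1.21-fold above control on SH3 without passing (adjusted p 0.0603 and 0.157). ATP6AP1, an accessory protein of the pump, had 11.33 on SH1 and 11.70 on SH3, against 11.86 on LEN-GFP and 11.53 on SCR, so that SH1 was low and SH3 was between the controls. ATP6V0D2, a form of the membrane sector known from osteoclasts and macrophages, had 5.02 on SH1 and 5.08 on SH3, against 5.46 on LEN-GFP and 5.19 on SCR. These values are under the limit for testing, and a dim probe set cannot be told from an unexpressed gene. The rest of the pump was mixed on SH3. The 14 further pump genes tested ran on SH3 from -0.72 (ATP6V1D, of the cytosolic sector) to 0.53 (ATP6V0A1, of the membrane sector). On SH3 9 of them were above the control mean (64.3%, against 49.7% of all genes tested). Over all 19 tested pump genes the median was -0.03 on SH1 and 0.14 on SH3.

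The plot of class medians sets these classes side by side. Leaving aside the other peptidases, where LGMN and TPP1 give a median of 1.20, the medians on SH3 ran from 0.05 for membrane proteins and 0.09 for cathepsins and glycosidases to 0.22 for lipid enzymes, 0.30 for sulfatases and 0.37 for the pump, and on SH1 they lay between -0.14 and 0.08. Differences between classes carry no test, because genes are not replicates of a condition.

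**Figure D3:**
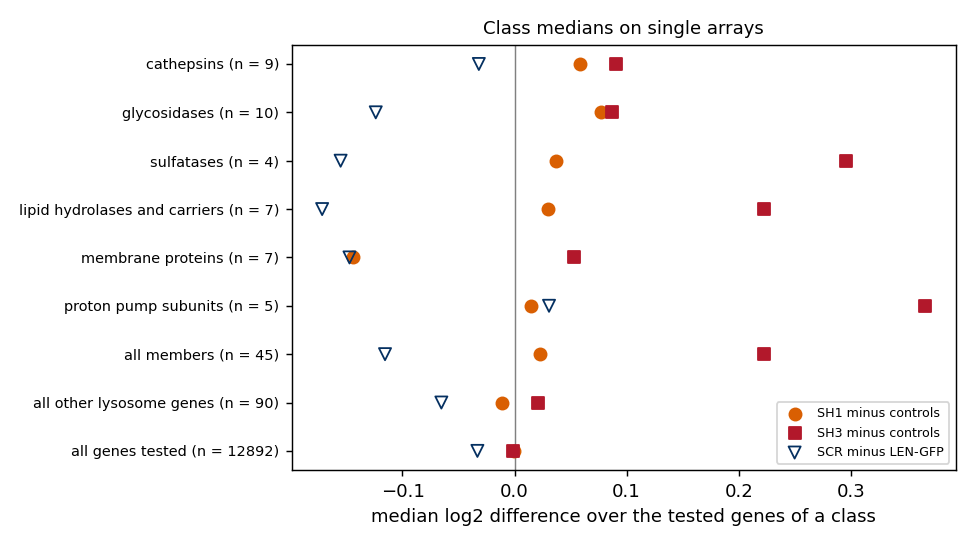
Median log2 difference over the tested genes of each class, for SH1 and SH3 against the mean of both controls (filled) and for SCR against LEN-GFP (open triangles), with no error bars because each point is 1 array or a pair of single arrays. The 45 members reach 0.22 on SH3 and 0.02 on SH1, and the open triangles reach -0.17, so the controls differ from each other by as much as some class medians do.

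TFEB, the transcription factor named above, had 8.07 on SH1 and 8.33 on SH3, against 8.17 on LEN-GFP and 8.02 on SCR. SH3 was the high array by 0.24 (adjusted p 0.363), SH1 was between the controls, and an mRNA level says nothing of where the protein is in the cell. Of its relatives, TFE3 differed by 0.21 on SH3 (adjusted p 0.495), MITF by -0.03 (adjusted p 0.948) and TFEC fell, at -0.57 (adjusted p 0.0479). Promoter windows from RefSeq (GRCh38.p14), from 250 bases before to 50 after a gene's start, were at hand for 30 of the 46 members and were searched on both strands. The core CACGTG, a palindrome that many factors of the helix-loop-helix class bind, was in 10 of the 30 (33.3%), against 8.78% of all 27305 genes with a window and 12.4% of the tested genes among them. The longer form TCACGTGA, which contains that core, was in 6 of 30 (20%, against 1.18% of all genes and 2.16% of tested genes), in GAA, MCOLN1, CTSA, CLN3, ATP6V0D1 and LAMP1. The letters AGGCCT, the core of the motif known for ZFX, were in 6 of 30 (20%, against 13.0% of all genes and 14.5% of tested genes). A match describes the letters in a window and is not a binding site.

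Stretches just before the start of 5 of the 6 genes with TCACGTGA are printed, to show where the core lies. It occurs at least 2 times in each stretch except that of ATP6V0D1, which holds it once. In the other gene, CLN3, the motif reaches the start of the transcript, and no sequence is printed. LAMP1 has a further match that begins 2 bases before its start and runs past the end of the printed stretch. They read 5′ to 3′ on the gene's own strand, with CACGTG in capitals. They lie at chr17:80101481-80101580 (plus strand) for GAA, chr19:7522524-7522623 (plus strand) for MCOLN1, chr20:45891235-45891334 (plus strand) for CTSA, chr16:67481158-67481257 (minus strand) for ATP6V0D1 and chr13:113297039-113297238 (plus strand) for LAMP1. The first 4 are 100 bases long and the LAMP1 stretch, which holds the core 5 times, is 200.
GAA: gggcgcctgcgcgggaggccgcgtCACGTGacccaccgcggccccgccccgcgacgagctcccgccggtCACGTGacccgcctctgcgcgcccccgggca
MCOLN1: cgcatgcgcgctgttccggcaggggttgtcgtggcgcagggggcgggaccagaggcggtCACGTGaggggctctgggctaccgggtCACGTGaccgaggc
CTSA: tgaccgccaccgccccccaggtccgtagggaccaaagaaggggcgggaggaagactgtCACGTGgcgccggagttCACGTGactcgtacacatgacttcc
ATP6V0D1: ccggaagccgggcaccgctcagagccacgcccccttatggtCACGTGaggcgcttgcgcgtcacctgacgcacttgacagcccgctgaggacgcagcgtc
LAMP1: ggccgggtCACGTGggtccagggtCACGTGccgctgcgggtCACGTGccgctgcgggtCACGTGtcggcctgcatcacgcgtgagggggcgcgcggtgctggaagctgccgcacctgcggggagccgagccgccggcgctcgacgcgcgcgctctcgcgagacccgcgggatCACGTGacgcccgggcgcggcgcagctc

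The 6 genes with TCACGTGA had medians of -0.11 for SH1 and 0.40 for SH3, and all 6 were higher on SH3 than on SH1. They ranged on SH3 between 0.03 (LAMP1) and 0.67 (CLN3), and on SH1 between -0.72 (LAMP1) and 0.13 (GAA). The 24 members whose windows lacked it had medians of -0.0038 on SH1 and 0.12 on SH3, and 19 of them were higher on SH3. Of all 12892 genes tested, 6459 were higher on SH3 than on SH1. Within the 24, CTSD, ARSB, CD63 and NEU1 had the core CACGTG alone, with 0.01, -0.17, -0.13 and 0.19 on SH3. CTSH, GM2A, GUSB, IDUA, LIPA and NPC2 had AGGCCT, with 0.49, 0.22, 0.02, 0.15, 0.55 and 0.18 on SH3. These values describe the lists and were not tested against each other.

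A wider list of lysosome genes was centred near 0 on both hairpin arrays. Of 107 further genes 93 were on the array and 90 were tested, with medians of -0.01 on SH1 and 0.02 on SH3. On SH3 10 rose (11.1%) and 9 fell (10%). Both hairpin arrays lay above both controls in 19 (21.1%, against 18.2% of all genes) and below them in 16 (17.8%, against 19.0%). The bar chart of calls on SH3 shows more members called higher than lower, beside similar shares in both directions for the wider list and for all genes.

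**Figure D4:**
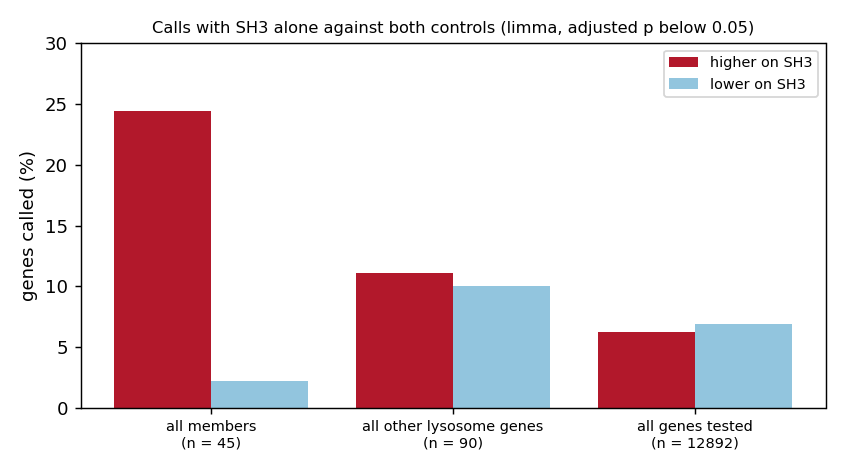
Share of tested genes called on SH3 alone against both controls (limma, adjusted p below 0.05), higher (dark bars) and lower (light bars), for the 45 members, the 90 other lysosome genes and all 12892 genes. Members and other lysosome genes were chosen with earlier results of these data known. The members have 24.4% higher and 2.22% lower, the other lysosome genes 11.1% and 10%, and all genes 6.27% and 6.90%.

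Of the wider list, the genes with the widest gap between groups on the high side were GALC, SORL1, SLC36A1, SLC15A3 and ARSG. GALC, the galactosylceramidase of Krabbe disease, had 11.31 on SH1 and 11.42 on SH3, against 10.94 on LEN-GFP and 10.94 on SCR. SORL1, a sorting receptor, had 11.03 on SH1 and 11.52 on SH3, against 10.70 on LEN-GFP and 10.38 on SCR. Both genes had every hairpin array above every control, and both rose on SH3 (GALC 0.48, adjusted p 0.0193, and SORL1 0.98, adjusted p 0.00357). The amino acid transporter SLC36A1, the peptide transporter SLC15A3 and the sulfatase ARSG differed by 0.41, 0.52 and 0.39 over both hairpins (adjusted p 0.797 each). On the low side were the pump subunit ATP6V0A2 (-0.25), the chloride exchanger CLCN7 (-0.26), the cathepsin CTSW of cytotoxic lymphocytes (-0.42), the potassium channel TMEM175 (-0.21) and the esterase SIAE (-0.24), none of which passed. SCARB2, the receptor that carries glucocerebrosidase to the lysosome, was picked after its values were seen: it fell by 1.19 on SH3 (adjusted p 0.00545), with 9.08 on SH1 and 7.88 on SH3, against 9.30 on LEN-GFP and 8.85 on SCR.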

How the data were processed

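All 46 members, their classes and the wider lists were chosen with earlier results of these data known. The authors deposited 1 table of linear intensity values for 33297 probe sets on 4 arrays. Affymetrix Expression Console 1.1 and RMA are named per the submitters' processing notes, while RMA gives log2 values, with the step back to linear ones not given in the sources read here. RMA usually equalises the arrays' distributions, so a change in total RNA is not visible, and it compresses fold changes of dim genes. Per the labels, 200 ng of total RNA was labelled with biotin.

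The log2 of each deposited intensity was taken, without an offset. A platform annotation gave 19460 probe sets 1 gene symbol, 1754 several and 12083 none. Of the first, 19429 matched RefSeq and 0 symbols changed. The brightest probe set stood for each of 18417 genes. IDS had 2 probe sets and NEU1 had 3, of which a pair held identical values. The 30% dimmest genes (5525, under log2 6.70) were left out. The test was limma 3.58.1, under R 4.3.3 (lmFit, eBayes with an intensity trend, two-sided, Benjamini-Hochberg over 12892 genes), with 2 residual degrees of freedom, or 1 for SH1 or SH3 alone and for SH3 minus SH1. Only the fit of both hairpin arrays against both controls was tried on simulated data. The fits of SH1 alone, SH3 alone and SH3 minus SH1 were not. Values on all arrays are given for up to 4 members per class with the largest difference, for members with a gap of at least 0.25 between the groups and for 9 genes always given, and MCOLN1 was added after its values were seen. Of the wider list up to 5 genes per direction are named by gap. Alternatives changed the filter (none, or 50%), the probe set rule, the normalization, an offset of 16, the moderation and each array in turn. Labels give no replicate numbers, so numbers only name arrays.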

Additional observations from a re-analysis of the deposited data

How the results depend on the processing

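Under 6 other settings (no filter, the lowest 50% left out, the mean of probe sets, median centring, quantile normalization again, an offset of 16) the 45 members gave 267 values. Of these 266 stayed within the spread between arrays of a group, 0 were called, and 2 differed in sign from the reported value. ASAH1 moved to 0.21 under quantile normalization. The cathepsin median was 0.12 with the lowest 50% left out, and the median of membrane proteins, near 0, was 0.02 under quantile normalization.

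Leaving out an array, hairpin or control, moved several results. Members with every hairpin array above every control were 13 with all arrays, 29 without LEN-GFP and 29 without SH1. Genes called were 0 with all arrays and ran between 0 and 1698 when each was left out (1698 without SH1, 54 without SH3). Leaving out each array in turn, the median ran between 0.058 and 0.18 for cathepsins, -0.14 and 0.057 for membrane proteins, and 0.014 and 0.37 for the pump. Members with every hairpin array above every control ran between 15 and 29, and those below between 3 and 12. In the wider list these counts ran between 25 and 43 on the high side and 22 and 34 on the low side. Fewer arrays separate more easily. Of all genes tested, SH3 alone lay above both controls in 38.7% and below both in 39.8%, and SH1 alone in 34.5% and 34.8%. Shares of all genes with a control left out are not given here. Among 180 member values 12 were called, all without SH1, and 26 over 21 members differed in sign.

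On SH3 the count of members that rose ran between 8 and 14 over 7 settings, against 3.64% to 8.02% of all genes, and 8 were called in each: CTSA, LGMN, IDS, LIPA, MCOLN1, NPC1, ATP6V1A and ATP6V1B2. CTSH, MAN2B1 and CLN3 lost the call without a filter and with median centring. On SH1 CTSS (0.60) and LAMP1 (-0.72) passed under quantile normalization and under none of the other settings. The share of all genes that passed on SH1 under quantile normalization is not given here. No paired analysis was possible because the labels give no replicate numbers and each construct has 1 array. No setting gives a detection call, so dim genes stay unresolved.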
